A study of Drosophila melanogaster with 10 samples.

Results

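The genes described here encode secreted enzymes of the fly gut. They were chosen by symbol: those that start with Jon, Mal-A, Mal-B, Amy- or Lys followed by a capital letter, and those made of a Greek letter name and Try. The rule matched 47 of the 17562 genes in the files. LysRS, which the rule also matched, is lysyl-tRNA synthetase, an enzyme of translation, and was set aside. The remaining 46 are 16 Jonah proteases (Jon), 11 trypsins (Try), 8 maltases of the Mal-A group, 2 of the Mal-B group, 2 amylases (Amy) and 7 lysozymes (Lys). They are described as a reading of gut RNA in a tissue sample that is mostly flight muscle.

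In flies, food is broken down in the midgut. Trypsins and the chymotrypsin-like Jonah enzymes are serine proteases that enterocytes secrete to cut dietary protein. Amylases cut starch into maltose and short chains, and maltases (alpha-glucosidases) release glucose from these and from sucrose. Several fly lysozymes are digestive enzymes of the midgut that break bacterial walls, whereas LysP is known from the adult salivary gland. In the adult the oesophagus, the proventriculus and the start of the midgut pass through the thorax, and the salivary glands lie there, while most of the midgut and the Malpighian tubules, the excretory organs, lie in the abdomen.

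Thoraces of adult male Drosophila melanogaster were pooled, 8-10 per sample, and their total RNA was sequenced after rRNA depletion. In Esg>yki[S3A] flies (labelled esg-Gal4, tub-Gal80ts with UAS-yki-act), active Yorkie is expressed in gut progenitor cells at 29 °C, and these libraries were made at days 2, 8 and 14 at 29 °C and at days 20, 26, 32 and 38, after a return to 18 °C that followed day 14. Control flies carried the same driver and Gal80ts with UAS-GFP, and their libraries were made at days 2 and 14 at 29 °C and at day 38 after 24 days at 18 °C. The driver is known for gut progenitors, and the transgene is not aimed at the muscle that was sampled. In the study's methods the gut was taken out whole when thoraces were dissected, and the section on RNA extraction and qPCR refers to that dissection, while the section on these libraries does not restate it. Each of the 10 conditions is 1 library, so no difference between conditions has a replicate check and no p-value was computed. Intervals are exact 95% intervals on reads and cover counting error only. The deposited counts are multiples of 0.25, and 4 times the value was taken as reads, which takes each value to be the average of 4 sequencing pools. Read counts and intervals rest on this.

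The libraries held 14615109 to 38208954 reads on genes. Genes of the mitochondrial genome took 24.3% to 32.5% of these reads in 9 libraries, while the Esg>yki[S3A] library of day 14 had 46.9%. Levels are given in RPKM, reads per kilobase of exon scaled to a library of 1000000 reads on genes, or in CPM, the same without the length. yki itself was at 3.60 to 9.83 RPKM in Esg>yki[S3A] thoraces and at 4.10 to 8.85 RPKM in control thoraces, so its level does not check the labels. All 10 flight muscle genes of a marker list had 534 or more reads in every library, and their log2 ratios of RPKM (Esg>yki[S3A] over control, day 2) lay between -0.78 and 0.36. In bulk RNA, fewer cells of a type and less RNA per cell cannot be told apart.

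Together the 46 genes took 0.0315% to 0.0689% of the reads in each library. The share was 0.0689% (0.0681 to 0.0698) in Esg>yki[S3A] thoraces at day 2, the highest of the 10 (though not without Mal-A5), against 0.0350% (0.0343 to 0.0356) in control thoraces at day 2. At day 14 it was 0.0315% (0.0308 to 0.0321) in Esg>yki[S3A] thoraces and 0.0336% (0.0330 to 0.0343) in control thoraces, an order that turned round with each of the 3 other scalings. At day 38 it was 0.0476% (0.0465 to 0.0487) in Esg>yki[S3A] thoraces and 0.0562% (0.0551 to 0.0573) in control thoraces.

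The Esg>yki[S3A] library of day 2 stood apart from the other 9, and counts of members called that rest on it are also given with day 8 in its place. In that library 35 of the 46 genes had over 3 reads, against 22 in control thoraces at day 2 and 13 to 19 in the other 8 libraries. Its 25 genes with their highest RPKM there include 15 that have over 90% of their reads of all 10 libraries in it. These 15 were 7 Jonah proteases, 4 trypsins and 4 Mal-A maltases. As a sum they had 5288 reads (141 CPM, 137 to 145) in Esg>yki[S3A] thoraces at day 2, against 67 reads (2.29 CPM, 1.77 to 2.90) in control thoraces at day 2 and 2 to 22 reads in each of the other 8 libraries. These genes are grouped by their level in that library, so the sums describe it and test nothing.

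Several markers of other organs were high in the same library. mex1, an enterocyte gene, had 254 reads in Esg>yki[S3A] thoraces at day 2, against 2 in control thoraces at day 2. Npc1b, which takes up dietary sterol in the midgut, had 859 reads there, against 17. Uro, the urate oxidase of the Malpighian tubule, had 208 reads there, against 1. Of the 5 tubule genes on a list, Uro, NaPi-T and Irk3 were called higher at day 2, while Irk1 and Irk2 were both 1.17-fold higher and inside the cut-off, and the list summed to 91.2 CPM in that library, against 36.5 to 111 CPM in the other 6 Esg>yki[S3A] libraries and 61.6 to 72.4 CPM in control thoraces. Of the 13 listed midgut cell genes, 6 reached 2 RPKM at day 2 and 2 of them, mex1 and Npc1b, were over 2-fold higher. The listed genes pros and Dh31 differed between the day 2 libraries by 0.02 on the log2 scale. In Esg>yki[S3A] thoraces at day 38, where mex1 had 0 reads, pros was at 10.2 RPKM and Dh31 at 27.3 RPKM. The summed midgut list was at 197 CPM in Esg>yki[S3A] thoraces at day 2, the lowest of the Esg>yki[S3A] libraries. It was at 281 to 397 CPM in the others and at 164 to 352 CPM in control thoraces. In that day 2 library pros held 4853 of the list's 7401 reads, so the sum mostly follows this 1 gene and is no reading of midgut RNA as a whole. The defining enterocyte gene mex1 was at 0 in Esg>yki[S3A] thoraces at day 38. The 12 genes of the male reproductive tract summed to at most 5.0 CPM in any library. Fat body genes differed too. Lsp2, a storage protein, had 6523 reads in Esg>yki[S3A] thoraces at day 2, against 429 in control thoraces at day 2 (11.9-fold higher), and Lsp1beta, another, had 7694 against 1103 (5.45-fold). Apoltp and apolpp, which encode lipid carriers of the blood, were inside the cut-off, and Fbp1 was too low to compare. Neither storage protein was high in that library alone, since control thoraces at day 14 had 4535 reads of Lsp2 and 14668 of Lsp1beta. The 5 fat body genes summed to 12008 CPM in Esg>yki[S3A] thoraces at day 2, against 8995 to 19941 CPM in the other Esg>yki[S3A] libraries and 8702 to 22344 CPM in control thoraces. The part of gut, tubule or fat body tissue in the day 2 values was not tested.

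**Figure D1:**
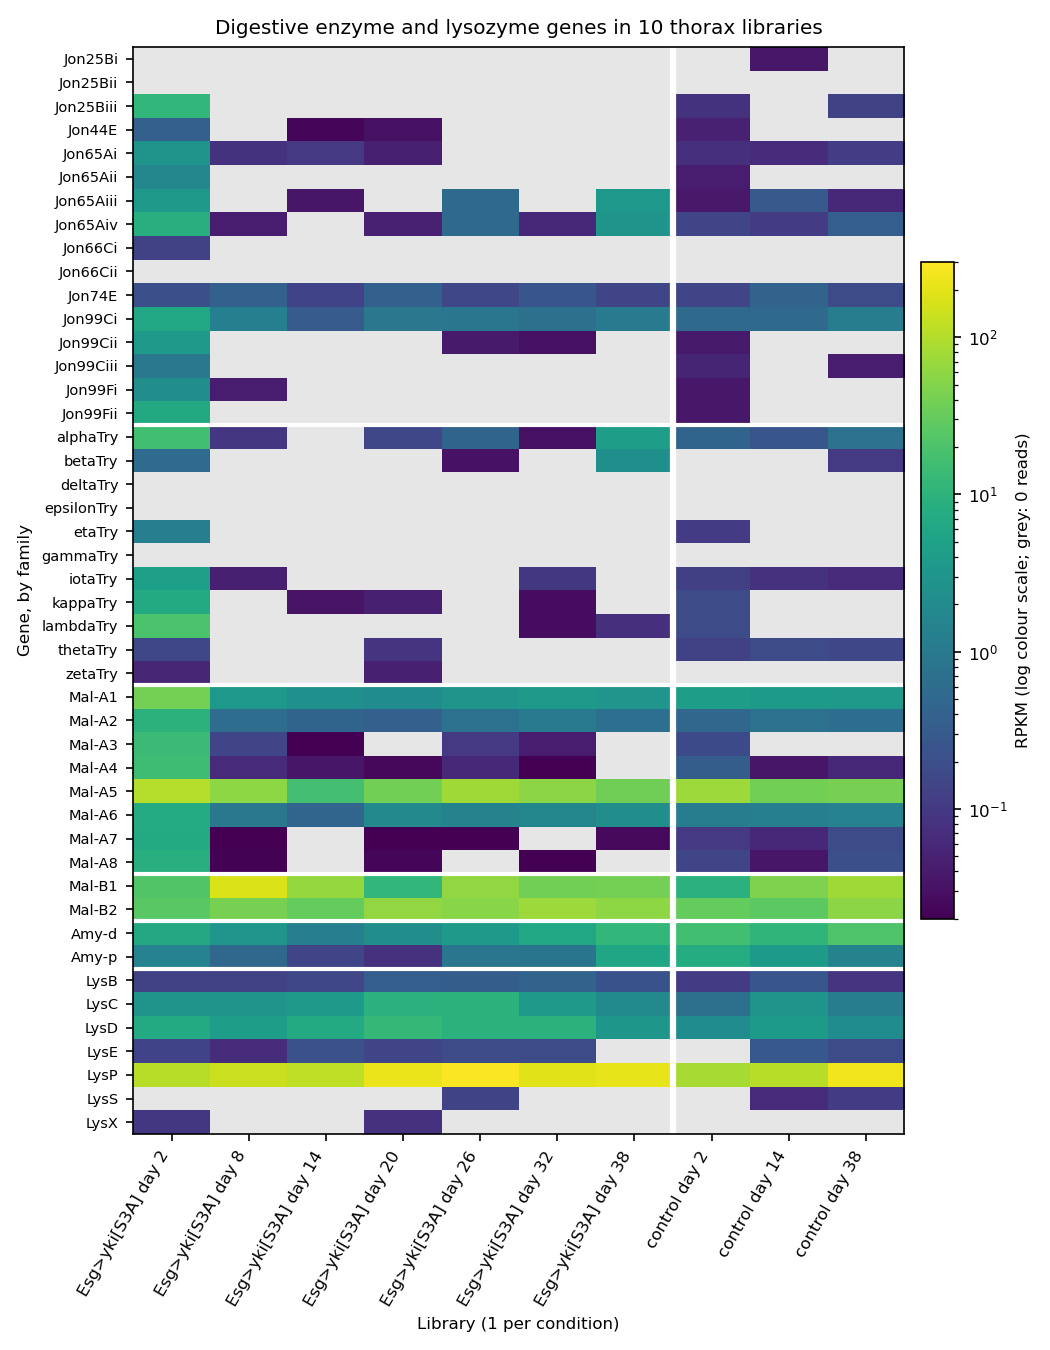
Level of each of the 46 genes (rows, grouped by family) in the 10 libraries (columns, Esg>yki[S3A] by day, then control by day), in RPKM on a log colour scale, with grey for 0 reads. The column of Esg>yki[S3A] thoraces at day 2 is filled for most Jonah, trypsin and Mal-A genes that have 0 to a few reads elsewhere, while LysP, Mal-B1, Mal-B2 and Mal-A5 are high in all columns.

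The genes lie in clusters of close relatives, which limits how far single members can be told apart. In the Release 6 assembly all 11 trypsins lie on chromosome arm 2R between 11336840 and 11357537, and all 8 Mal-A genes on 2R between 8449664 and 8473961. Amy-p (17118636 to 17120303) and Amy-d (17124764 to 17126369) stand on opposite strands of 2R. Mal-B1 and Mal-B2 are neighbours on 2L between 11847226 and 11852881, and the 7 lysozymes lie on 3L between 1194739 and 1228238. LysC is annotated as a pseudogene of 242 bases whose end overlaps that of LysD on the other strand. The exons of Jon44E, deltaTry, Mal-A1 and Mal-A8 also overlap a gene on the other strand. How reads that match several genes were counted is not given in the sources used here, so values of near-identical pairs such as Amy-p and Amy-d, or Jon99Cii and Jon99Ciii, are uncertain.

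Of the 46 genes, 37 had over 3 reads in at least 1 library and 9 never did. Jon25Bii, Jon66Cii, deltaTry, epsilonTry and gammaTry had 0 reads in all 10 libraries, which allows up to 3 reads in each. gammaTry and deltaTry are near-identical copies. Only 11 genes had over 3 reads in every library: the protease Jon99Ci, the maltases Mal-A1, Mal-A2, Mal-A5, Mal-A6, Mal-B1 and Mal-B2, the amylase Amy-d, and LysC, LysD and LysP. No trypsin was among them. These 11 carried 74.9% of the members' reads in Esg>yki[S3A] thoraces at day 2, against 95.3% to 99.7% in the other 9 libraries.

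Among the trypsins, lambdaTry and alphaTry were the most abundant. lambdaTry had 691, 0, 0, 0, 0, 1 and 1 reads in Esg>yki[S3A] thoraces at days 2, 8, 14, 20, 26, 32 and 38, against 5, 0 and 0 in control thoraces at days 2, 14 and 38. Of its reads, 99.0% were thus in the library of day 2, at 19.4 RPKM. alphaTry had 532, 2, 0, 3, 11, 1 and 55 reads over the 7 days in Esg>yki[S3A] thoraces, against 11, 7 and 12 in control thoraces. It was high at day 2, and in contrast to lambdaTry it was seen again at days 26 and 38. betaTry had 23, 0, 0, 0, 1, 0 and 38 reads over the 7 days in Esg>yki[S3A] thoraces, against 0, 0 and 2 in control thoraces. Its highest level was thus at day 38 (2.43 RPKM) and not at day 2 (0.573 RPKM). kappaTry (248 reads), iotaTry (138) and etaTry (41) were also seen in the Esg>yki[S3A] library of day 2, and had at most 5 reads elsewhere.

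The Jonah proteases followed the same division. Jon25Biii had 357 reads in Esg>yki[S3A] thoraces of day 2, none at the 6 later days, against 2, 0 and 2 in control thoraces. Jon99Fii had 240 reads in Esg>yki[S3A] thoraces of day 2, none later, against 1, 0 and 0. Both thus had over 3 reads in that library only. Jon65Aiv had 288, 1, 0, 1, 14, 2 and 38 reads in Esg>yki[S3A] thoraces, against 4, 3 and 6 in control thoraces. Its neighbour Jon65Aiii had 116, 0, 1, 0, 14, 0 and 43 reads in Esg>yki[S3A] thoraces, against 1, 8 and 1 in control thoraces. Like alphaTry, both were seen at days 2, 26 and 38. Jon99Ci, the only Jonah gene over 3 reads in all libraries, was at 6.23, 1.28, 0.314, 0.917, 0.885, 0.693 and 1.06 RPKM in Esg>yki[S3A] thoraces, against 0.565, 0.532 and 1.13 RPKM in control thoraces. Jon74E, with 2 to 12 reads in each library, was not higher in the day 2 library (7 reads) than in control thoraces at day 14 (12 reads).

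The proteases seen in Esg>yki[S3A] thoraces at day 38 were in other proportions than those of day 2. betaTry made up 40.9% (30.8 to 51.5) of the betaTry and alphaTry reads at day 38, against 4.14% (2.64 to 6.15) at day 2. alphaTry made up 98.2% (90.4 to 99.95) of the alphaTry and lambdaTry reads at day 38, against 43.5% (40.7 to 46.3) at day 2. Jon65Aiii made up 53.1% (41.7 to 64.3) of the Jon65Aiii and Jon65Aiv reads at day 38, against 28.7% (24.3 to 33.4) at day 2. None of these 3 pairs of counting intervals overlapped, but such intervals leave out differences between libraries of the same condition. The genes paired here stood out at day 2 or day 38, so the shares describe these libraries and test nothing. mex1 and Uro were at 0 reads in the day 38 library and Npc1b at 8. Lsp2 had 1276 reads in Esg>yki[S3A] thoraces at day 38, against 38 in control thoraces, and the part of fat body tissue in these values was not tested.

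The 8 Mal-A maltases share a cluster and differed widely in level. Mal-A5 was by far the highest. It was at 103.7, 59.6, 16.7, 38.2, 75.3, 55.5 and 37.7 RPKM in Esg>yki[S3A] thoraces at days 2 to 38, against 73.0, 39.4 and 42.5 RPKM in control thoraces at days 2, 14 and 38. Its lowest value was that of Esg>yki[S3A] thoraces at day 14, under all 3 control values, and the counting intervals of the control levels of days 14 and 38 overlapped. Mal-A1 was at 40.6, 3.33, 2.51, 2.18, 2.87, 3.65 and 3.04 RPKM in Esg>yki[S3A] thoraces, against 4.17, 3.77 and 3.67 RPKM in control thoraces. Apart from the day 2 library, its 9 values ranged only from 2.18 to 4.17 RPKM. Mal-A6 was at 7.46, 0.946, 0.456, 1.81, 1.46, 1.67 and 2.30 RPKM in Esg>yki[S3A] thoraces, against 1.16, 1.25 and 1.44 RPKM in control thoraces. Mal-A2 was at 9.58, 0.627, 0.451, 0.387, 0.754, 1.03 and 0.672 RPKM in Esg>yki[S3A] thoraces, against 0.470, 0.727 and 0.636 RPKM in control thoraces. Both were at 2.30 RPKM or less in the other 9 libraries.

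Mal-A3, Mal-A4, Mal-A7 and Mal-A8 were close to absent in the other 9 libraries. Mal-A4 had 1010, 3, 2, 1, 3, 1 and 0 reads in Esg>yki[S3A] thoraces, against 18, 2 and 2 in control thoraces. Mal-A3 had 963, 7, 1, 0, 5, 3 and 0 reads in Esg>yki[S3A] thoraces, against 9, 0 and 0 in control thoraces. Mal-A7 (737 reads) and Mal-A8 (568 reads) had at most 9 and 8 reads outside the day 2 library. The cluster thus held genes read in every library beside genes read almost only in that one. Mal-A1 made up 73.4% (71.9 to 74.8) of the Mal-A1 and Mal-A4 reads in Esg>yki[S3A] thoraces at day 2, against 92.5% (88.5 to 95.5) in control thoraces at day 2. In the other 8 libraries the share was 98.0% or more.

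The Mal-B maltases were well read in all libraries, at 9.26 RPKM or more. Mal-B1 was at 22.2, 173, 66.7, 11.6, 64.3, 39.1 and 40.9 RPKM in Esg>yki[S3A] thoraces at days 2 to 38, against 9.26, 47.3 and 76.3 RPKM in control thoraces at days 2, 14 and 38. It was the most variable of the abundant members: day 8 was 7.79-fold above day 2, day 20 was 5.76-fold below day 14, and day 26 was 5.55-fold above day 20. Its day 20 level in Esg>yki[S3A] thoraces (10.6 to 12.7 RPKM) was the one nearest to that of control thoraces at day 2 (8.46 to 10.1 RPKM). Mal-B2, its neighbour, was at 25.7, 41.2, 30.4, 62.3, 53.4, 72.3 and 59.4 RPKM in Esg>yki[S3A] thoraces, against 30.5, 26.8 and 56.6 RPKM in control thoraces. All 5 libraries kept at 18 °C were above all 5 kept at 29 °C, also with the 3 other scalings, and age and temperature cannot be told apart. At day 20 the neighbours stood on opposite sides, with Mal-B1 at its lowest level among the Esg>yki[S3A] libraries and Mal-B2 higher than at any other day but day 32.

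The amylases, unlike most other members, were lower in Esg>yki[S3A] thoraces at day 2. Amy-d was at 6.71, 3.01, 1.2, 2.32, 3.61, 6.18 and 11.7 RPKM in Esg>yki[S3A] thoraces at days 2 to 38, against 16.3, 11 and 21.4 RPKM in control thoraces at days 2, 14 and 38. It was lower in Esg>yki[S3A] thoraces at all 3 shared days, lowest at day 14, and each later Esg>yki[S3A] library was higher than the one before. The steps from day 14 to day 38 were 1.93-fold, 1.56-fold, 1.71-fold and 1.90-fold, each with a counting interval above 1. Amy-p was at 1.41, 0.511, 0.152, 0.0787, 0.878, 0.847 and 5.82 RPKM in Esg>yki[S3A] thoraces, against 7.82, 3.71 and 1.46 RPKM in control thoraces. It was lower than in control at days 2 and 14 and higher at day 38. Amy-p made up 34.1% (29.5 to 38.8) of the amylase reads in Esg>yki[S3A] thoraces at day 38, against 6.59% (4.85 to 8.72) in control thoraces at day 38. At day 2 the share was 17.9% (14.6 to 21.6) in Esg>yki[S3A] thoraces and 33.3% (30.6 to 36.1) in control thoraces, the opposite order.

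LysP was the most abundant of the 46 genes, with a mean of 171 RPKM over the 10 libraries. It was at 109, 139, 119.9, 223, 282, 197 and 209 RPKM in Esg>yki[S3A] thoraces at days 2 to 38, against 86.1, 106 and 242 RPKM in control thoraces at days 2, 14 and 38. Like Mal-B2, it was higher in each of the 5 libraries kept at 18 °C than in any of the 5 kept at 29 °C under all 4 scalings, and the day 2 library of Esg>yki[S3A] thoraces was not among the high ones. The salivary gland genes sage and fkh had 37 to 210 and 51 to 98 reads in Esg>yki[S3A] thoraces, against 51 to 200 and 30 to 67 in control thoraces. Both were thus present in all libraries, and sage was higher in Esg>yki[S3A] thoraces at day 8 (210 reads) than in those at day 38 (37 reads).

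The midgut lysozymes were low. LysD was at 7.17, 4.27, 7.25, 12.0, 9.59, 9.60 and 3.28 RPKM in Esg>yki[S3A] thoraces at days 2 to 38, against 2.13, 3.76 and 2.14 RPKM in control thoraces at days 2, 14 and 38. LysC was at 2.87, 2.88, 3.53, 9.40, 9.51, 3.57 and 1.98 RPKM in Esg>yki[S3A] thoraces, against 0.705, 2.93 and 1.12 RPKM in control thoraces, from 5 to 66 reads. LysC was highest at days 20 and 26 in Esg>yki[S3A] thoraces, and LysD at day 20, with days 26 and 32 alike after it. They overlap each other, and reads of one may be counted for the other. LysB had 1 to 10 reads per library and LysE at most 5, while LysS and LysX had at most 2.

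**Figure D2:**
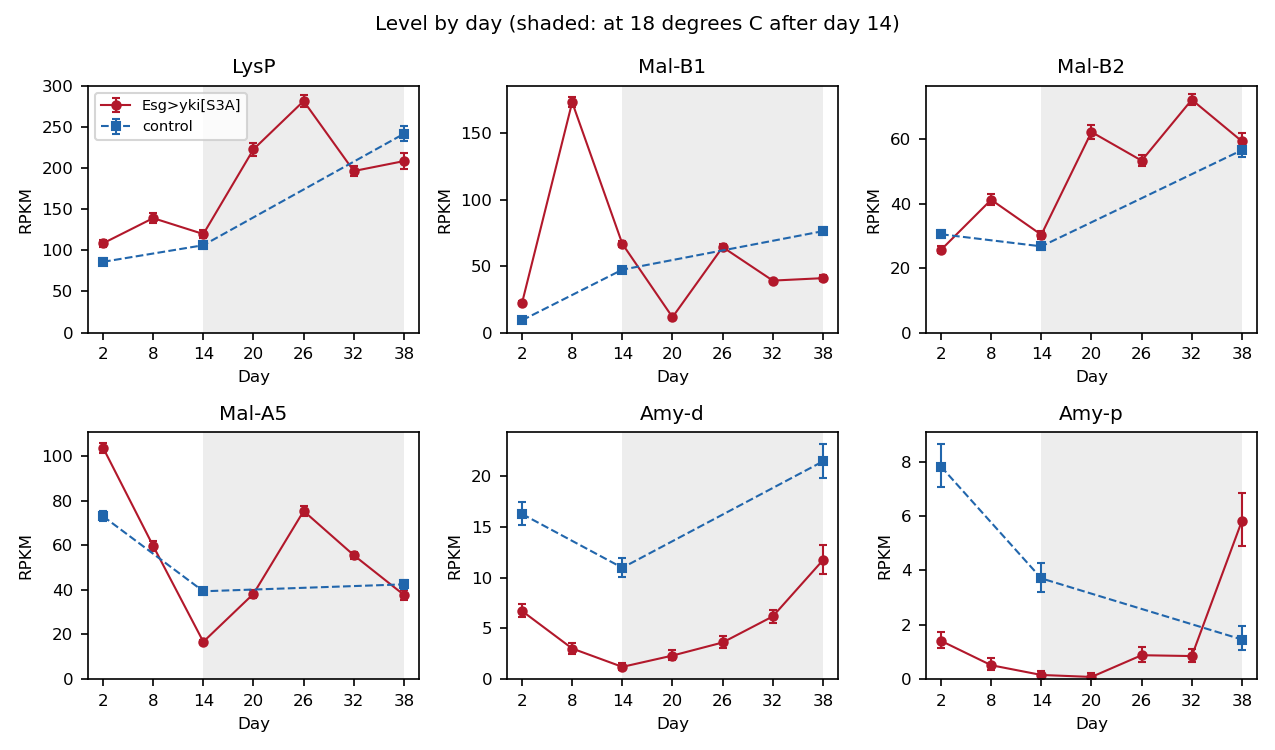
RPKM by day for LysP, Mal-B1, Mal-B2, Mal-A5, Amy-d and Amy-p in Esg>yki[S3A] thoraces (circles, 7 libraries) and control thoraces (squares, 3 libraries), with 95% counting intervals and the 18 °C period shaded. Amy-d lies below control at days 2, 14 and 38, Mal-B1 peaks at 173 RPKM at day 8, and LysP is higher in the shaded period in both genotypes.

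Set side by side at day 2, most protease and Mal-A genes that could be compared were higher in the Esg>yki[S3A] library, and both amylases were lower. A gene was compared where it reached 2 RPKM in the larger library, and called past 1 on the log2 ratio, a 2-fold difference. Of the 46 genes, 27 were compared, and 22 were called higher and 2 lower, against 3.67% called higher and 0.951% called lower of all 8093 genes compared. Their median log2 ratio was 5.24, against 0.02 for all genes. Of the 27, 19 reached 2 RPKM in the Esg>yki[S3A] library alone and so had to be higher there. The 22 were 8 Jonah genes, 4 trypsins, 7 Mal-A genes, Mal-B1, LysC and LysD. Among the 8 genes that reached 2 RPKM in control thoraces, 3 were higher, 2 lower and 3 within 2-fold. Of the 2 lower genes, Amy-p reached 2 RPKM in control thoraces alone and so had to be lower.

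The ratios at day 2 were widest for genes close to absent in control. Jon99Fii was 187-fold higher in Esg>yki[S3A] thoraces (33.3 to 7435), from 240 reads against 1. lambdaTry was 108-fold higher (46 to 334), from 691 reads against 5. Mal-A3 was 83.6-fold higher (43.8 to 183), from 963 reads against 9. For genes well read in control the ratios were smaller. Mal-A1 was 9.74-fold higher (8.49 to 11.2), Mal-A6 6.42-fold (5.07 to 8.23), and Mal-B1 2.40-fold (2.17 to 2.66). Mal-A5 (1.42-fold, 1.37 to 1.47), LysP (1.26-fold, 1.18 to 1.35) and Mal-B2 (0.841-fold, 0.792 to 0.893) stayed within 2-fold. Amy-d (log2 ratio -1.28, -1.46 to -1.10) and Amy-p (-2.47, -2.83 to -2.14) were called lower.

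With Esg>yki[S3A] thoraces of day 8 in place of those of day 2, 3 of 9 genes were called higher and 2 lower against control thoraces at day 2, beside 16.9% higher and 6.15% lower of all 8422 genes compared. The higher ones were Mal-B1, LysC and LysD, and the lower ones were again Amy-d (log2 ratio -2.43) and Amy-p (-3.94). LysC reached 2 RPKM in the Esg>yki[S3A] library alone and Amy-p in control thoraces alone, so their directions were fixed. No protease reached 2 RPKM in that pairing, so none was compared. Of the Mal-A maltases only Mal-A1 (log2 ratio -0.33) and Mal-A5 (-0.29) were compared, and both lay inside the cut-off.

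**Figure D3:**
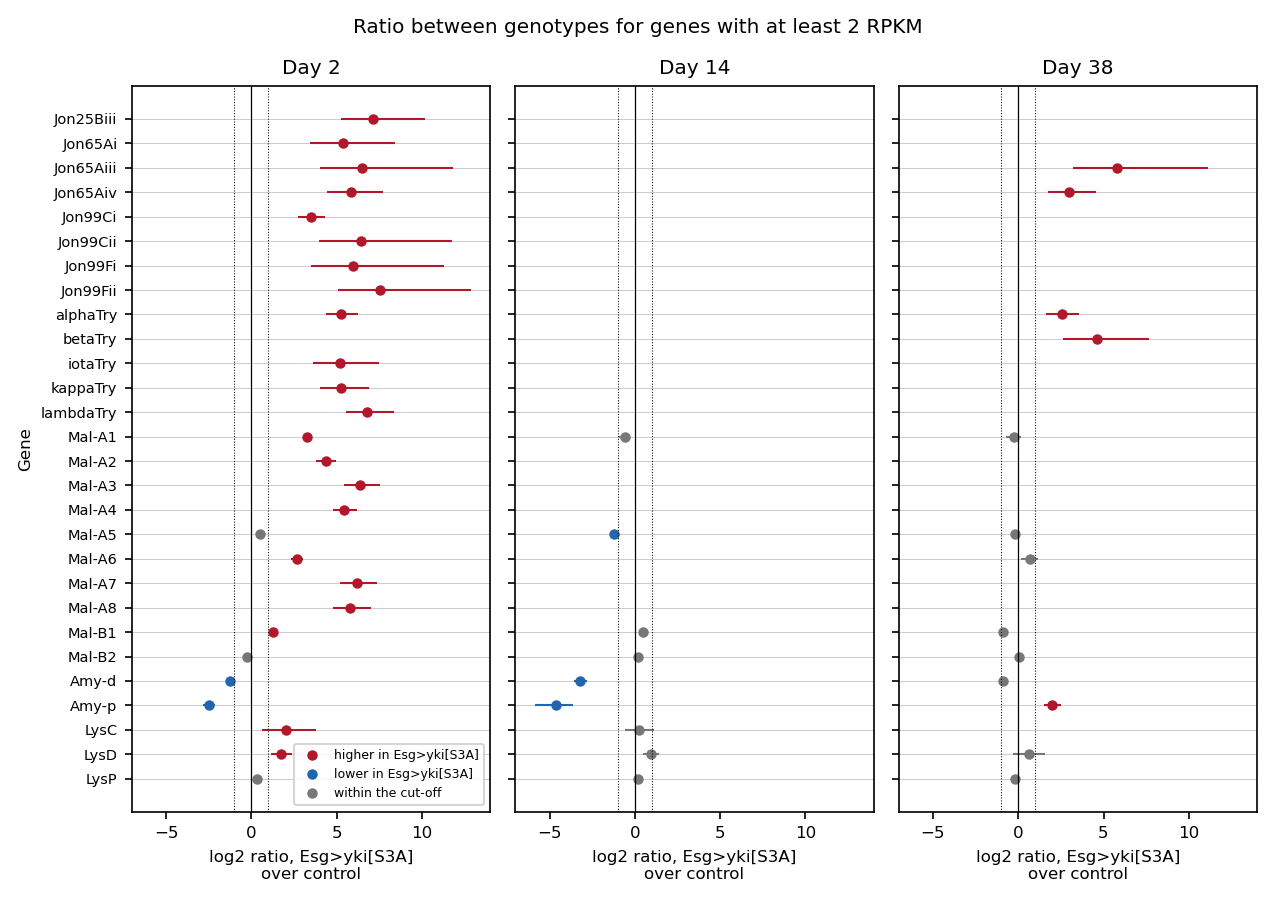
log2 ratio of RPKM, Esg>yki[S3A] over control, at days 2, 14 and 38 for each gene that reached 2 RPKM in the library where it was higher, with 95% counting intervals and dotted lines at the 2-fold cut-off. At day 2 the 22 higher genes reach 7.55 (Jon99Fii), at day 14 the called genes are lower (Amy-p, Amy-d and Mal-A5), and at day 38 the 5 called genes are higher.

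At day 14, when the gut tumours had been induced for longest, 9 of the 46 genes reached 2 RPKM, and no protease was among them. None was called higher and 3 were called lower, against 2.99% higher and 16.9% lower of all 8367 genes compared. The lower genes were Amy-p (log2 ratio -4.61, -5.84 to -3.60), Amy-d (-3.19, -3.60 to -2.81) and Mal-A5 (-1.24, -1.34 to -1.13). Amy-p and Amy-d reached 2 RPKM in control thoraces alone and so had to be lower in the Esg>yki[S3A] library. LysP, Mal-B1, Mal-B2, LysC, LysD and Mal-A1 lay between -0.59 and 0.95. The median log2 ratio was 0.17 for the 9 genes, against -0.36 for all genes, whose median moved up by 0.31 to 0.47 with the other 3 scalings. Under those scalings 5.57% to 8.84% of all genes were called higher and 6.87% to 8.79% lower, Amy-d and Amy-p remained lower, Mal-A5 lay inside the cut-off (-0.93 to -0.79) and LysD was called higher (1.25 to 1.39). The mitochondrial share of reads was 46.9% in Esg>yki[S3A] thoraces, against 29.3% in control thoraces, at this day, and the scaling on nuclear genes, 1 of the 3, leaves these reads out.

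At day 38, after 24 days at 18 °C, 13 genes reached 2 RPKM. The 5 called higher were Jon65Aiii (54.5-fold, 9.27 to 2202), betaTry (24.1-fold, 6.22 to 206), Jon65Aiv (8.03-fold, 3.37 to 23.2), alphaTry (5.81-fold, 3.07 to 11.9) and Amy-p (4.0-fold, 2.84 to 5.72). None was called lower, against 3.67% higher and 1.48% lower of all 8527 genes compared, and the median log2 ratio was 0.62 for the 13 genes and -0.06 for all genes. All 5 reached 2 RPKM in the Esg>yki[S3A] library alone and so had to be higher there, the 4 proteases from 38 to 55 reads. Of the 7 genes that reached 2 RPKM in control thoraces, none was called. Amy-d (-0.87), Mal-B1 (-0.90) and LysP (-0.21) stayed within 2-fold.

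Over the tumour period, day 14 against day 2 in Esg>yki[S3A] thoraces, 26 genes were compared with a cut-off of 1.3 on the log2 ratio, the study's cut-off for its time course. Mal-B1 was called higher (3.0-fold, 2.83 to 3.19) and 21 were called lower, against 7.51% higher and 13.7% lower of all 8433 genes compared. The 21 were all 8 Jonah genes, all 4 trypsins and all 8 Mal-A maltases compared, and Amy-d. Of the 26, 19 reached 2 RPKM at day 2 alone and so had to be lower at day 14. Of the 21, 10 had 0 reads at day 14, so that their folds are bounds. alphaTry, for example, was at least 149-fold lower, from 0 reads against 532. The median log2 ratio was -4.92 with those 10 genes at their bound, against -0.02 for all genes. Scaled to reads on nuclear protein-coding genes, 1 gene was higher and 23 lower, against 16.6% and 8.94% of all genes. Most of this step lay before day 8: with day 8 in place of day 14, 19 of 26 genes were called lower and 1 higher, against 5.38% lower and 6.06% higher of all genes, whereas with day 8 in place of day 2 3 of 8 were lower and none higher, against 6.83% lower and 1.37% higher of all genes. These 3 were Mal-A5 (log2 ratio -1.84), Mal-B1 (-1.38) and Amy-d (-1.33). Amy-d reached 2 RPKM at day 8 alone and so had to be lower at day 14.

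In control thoraces over the same days, 9 genes were compared, and Mal-B1 (5.11-fold, 4.64 to 5.64) and LysC (4.15-fold, 1.53 to 14.0) were called higher at day 14 and none lower, against 8.74% higher and 3.21% lower of all 8326 genes. With edgeR's and DESeq2's factors 4.63% and 4.67% of all genes were higher and 5.38% and 5.33% lower, and Amy-p was called lower. LysC reached 2 RPKM in control thoraces at day 14 alone and so had to be higher there. Mal-B1 was thus called higher at day 14 in both genotypes. Mal-A1 (log2 ratio -0.14), Mal-B2 (-0.19) and LysP (0.30) lay within the cut-off in control thoraces.

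Over the 24 days after the return to 18 °C, day 38 against day 14 in Esg>yki[S3A] thoraces, 7 of 14 genes were called higher and none lower, against 14.2% higher and 3.25% lower of all 8541 genes compared. With the other 3 scalings, 7.55% to 8.78% of all genes were higher and 6.3% to 8.75% lower, and LysD was called lower. The 7 were Jon65Aiii, Jon65Aiv, alphaTry, betaTry, Mal-A6 (5.04-fold, 3.31 to 7.83), Amy-d (9.74-fold, 7.36 to 13.1) and Amy-p (38.4-fold, 18.9 to 90.6). All 7 reached 2 RPKM at day 38 alone and so had to be higher there. Of the 7 genes that reached it at day 14, none was called. The folds of 3 of the higher genes are bounds, from 0 reads at day 14. The median log2 ratio of the 14 genes was 1.75 with those 3 at their bound, against 0.34 for all genes. With day 32 in place of day 38, only Amy-d (5.14-fold) and Mal-A5 (3.32-fold) of 8 genes were called higher and none lower, against 15.2% higher and 2.23% lower of all genes, so the 4 proteases rested on the day 38 library. In that pairing Amy-d reached 2 RPKM at day 32 alone and so had to be higher there. In control thoraces, day 38 against day 14, 9 genes were compared, none was called higher, and Amy-p (log2 ratio -1.35, -1.85 to -0.87) and LysC (-1.39, -3.15 to 0.04) were called lower, against 3.62% higher and 4.78% lower of all 8613 genes. Both reached 2 RPKM at day 14 alone and so had to be lower at day 38.

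Other genes of digestion were set beside the members. Of 21 further digestive enzymes on a list, 14 reached 2 RPKM at day 2. Of these, 13 were called higher in Esg>yki[S3A] thoraces and none lower, against 3.67% higher and 0.951% lower of all 8093 genes compared. Their median log2 ratio was 6.10. Only CG10472 (2.44 RPKM) and Gal (8.34 RPKM) reached 2 RPKM in control thoraces at day 2, so the others had to be higher in the Esg>yki[S3A] library. Summed over the list, they were at 572 CPM in Esg>yki[S3A] thoraces at day 2, against 29.3 in control thoraces at day 2 and 8.8 to 42.1 in the other 8 libraries. CG10472, a serine protease, had 4760 reads in Esg>yki[S3A] thoraces at day 2, against 67 in control thoraces, and mag, a secreted lipase, had 1032 against 6. Gal, a beta-galactosidase, differed little, with 1055 reads against 573 (1.44-fold). At day 38 yip7, a chymotrypsin-like protease, had 57 reads in Esg>yki[S3A] thoraces, against 2 in control thoraces, CG17633 had 24 against 1, and CG8329 had 32 against 1. In Esg>yki[S3A] thoraces at day 2, yip7 had 686 reads, CG17633 809 and CG8329 0. Among these, CG8329 alone was thus seen at day 38 and not at day 2. CG17633 was at 1.22 RPKM at day 38, under the minimum for a comparison.

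The lysozyme-like genes outside the named Lys family did not move with the proteases at day 2. Of 10 on a list, 7 were compared and none was called at day 2, with log2 ratios from -0.24 to 0.71. CG6426, the most abundant, had 6990 reads in Esg>yki[S3A] thoraces at day 2, against 6428 in control thoraces. At day 14, 5 of the 7 were called lower in Esg>yki[S3A] thoraces, against 16.9% of all genes, and 2 of the 7, CG6426 and CG6435, with each of the 3 other scalings.

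The 8093 genes compared at day 2, of which 27 were members, were ranked by their ratio. Of the top 50, 7 were members, and of the top 100, 15 were, and a further 6 and 12 were on the list of other digestive enzymes. As 19 of the 27 members reached 2 RPKM in the Esg>yki[S3A] library alone, the ranking describes that library and tests nothing. It was not repeated without that library.

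**Figure D4:**
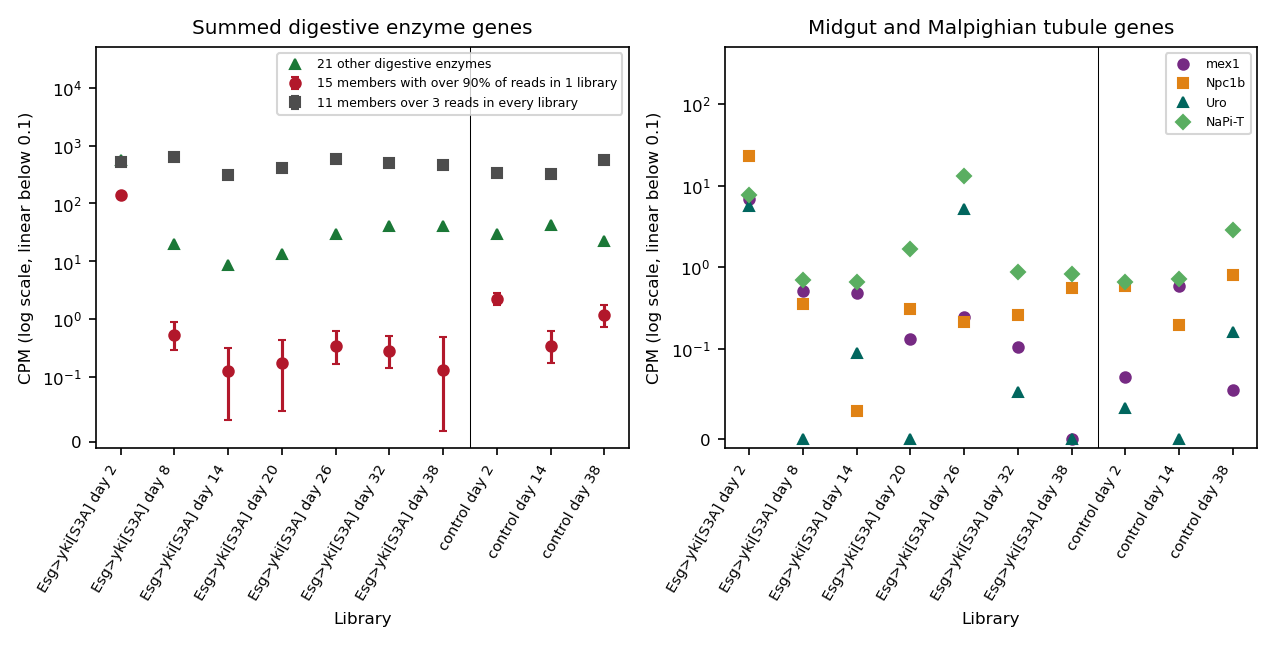
Left, CPM summed over 3 groups of digestive genes in each library, with 95% counting intervals on the 2 groups of members, and right, CPM of the midgut genes mex1 and Npc1b and the Malpighian tubule genes Uro and NaPi-T, on log axes that are linear below 0.1. The 15 members, mex1 and Npc1b are high in Esg>yki[S3A] thoraces at day 2, whereas Uro and NaPi-T are also high at day 26, when the 15 members are at 0.349 CPM.

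Some gut and tubule genes did not come together. In Esg>yki[S3A] thoraces at day 26, Uro had 148 reads and NaPi-T, a phosphate transporter of the tubule, 371, while mex1 had 7, Npc1b 6 and the 15 members restricted to the day 2 library 10 in all. The tubule genes Irk1 (3.94 RPKM) and Irk2 (26.7 RPKM) stood out less there, against 2.14 to 4.73 and 9.12 to 24.9 RPKM in the other Esg>yki[S3A] libraries. Mur29B, a listed mucin gene, had 51 reads, against 92 at day 2 and at most 8 in the other Esg>yki[S3A] libraries. In the same library CG31198, an aminopeptidase, had 140 reads, and alphaTry, Jon65Aiii and Jon65Aiv had 11, 14 and 14. The 11 genes read in every library summed to 516 CPM in Esg>yki[S3A] thoraces at day 2, inside the range of 314 to 639 over the other Esg>yki[S3A] libraries, against 333, 328 and 556 in control thoraces at days 2, 14 and 38.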

How the data were processed

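Reads were aligned with STAR to the FlyBase release 6 genome, per the study's methods; the build list in the labels names a mouse build, while the files hold FlyBase gene identifiers. The authors deposited estimated counts per gene, in multiples of 0.25, with no scaling for depth or length. Which program counted the reads, whether it used strand, and what it did with reads of several matches is not given in the sources used here. Counts were multiplied by 4 and, for levels, divided by the library total and the merged exon length of Ensembl release 115, which 99.7% of genes matched. A row that names no gene was left out. Members and gene lists were chosen with earlier results of these data known. LysRS matched the rule and was set aside after it was recognised as no lysozyme.

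Libraries were set side by side with cut-offs of 1 between genotypes and 1.3 between days on the log2 ratio of RPKM and a minimum of 2 RPKM in the larger library. A gene with 0 reads was set to 3 reads, its fold is then a bound, and no fold was formed where both libraries had at most 3 reads. Ratios and shares carry exact Clopper-Pearson 95% intervals, and single levels Poisson intervals. Values in every library are given for the 16 members with the highest mean RPKM, the highest of each family, and members called against the majority between genotypes; other members named were chosen after their values were seen. The counting of calls was tested on simulated data. Python 3.11.15, NumPy 2.4.6, SciPy 1.17.1 and pandas 2.3.3 were used, with edgeR 4.0.16 and DESeq2 1.42.0 for alternative scalings only.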

Additional observations from a re-analysis of the deposited data

Results flagged for a closer look

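The difference between genotypes was not alike at days 2, 14 and 38, and ratios are given for 4 families. These differences between days were not tested, since each condition is 1 library. For the summed Jonah reads the log2 ratio, Esg>yki[S3A] over control, was 5.15 (4.68 to 5.67) at day 2, -1.21 (-2.10 to -0.38) at day 14 and 1.85 (1.28 to 2.46) at day 38. The Jonah value of day 14 rests on 18 reads against 41. For the Mal-A maltases the log2 ratio was 1.32 (1.28 to 1.37) at day 2, -1.17 (-1.27 to -1.08) at day 14 and -0.15 (-0.25 to -0.05) at day 38. At day 14, Mal-A5 gave 1110 of the 1320 Mal-A reads in Esg>yki[S3A] thoraces. The other 3 scalings moved the day 14 median of all genes up by 0.31 to 0.47, and the ratios here are given with the main scaling only. For the Mal-B maltases it was 0.19 (0.12 to 0.26), 0.37 (0.32 to 0.43) and -0.35 (-0.41 to -0.28) at the 3 days. For the lysozymes it was 0.39 (0.30 to 0.48), 0.20 (0.11 to 0.28) and -0.20 (-0.29 to -0.12). The other families also differed between days and are given as summed CPM, Esg>yki[S3A] against control. The trypsins were at 44.8 against 1.06 at day 2, 0.0317 (1 read) against 0.483 at day 14 and 6.43 against 0.972 at day 38. The amylases were at 13.1 against 39.2, 2.18 against 23.8 and 28.5 against 36.9. The intervals cover counting error only.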

How the results depend on the processing

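No paired analysis was possible because each condition is 1 library. Summing members over 90% identical in protein was not run, as no protein sequences were used here. Leaving out 1 library in turn was not possible for the same reason. Counting LysRS as a member, and taking Esg>yki[S3A] day 8 in place of day 2, were chosen after seeing the data. Over all settings, 89 of 120 counts of called genes stayed within 1.5 times the value given, including all 14 with LysRS counted. What 1 library per condition shows is limited to these libraries, and a gene at 0 reads may lie at up to 3 reads, or 0.0785 to 0.205 CPM by library. Changes of the minimum alter which genes are compared; for the other changes the cause was not tested.

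The 22 genes called higher at day 2 became 7 with a minimum of 10 RPKM and 3 with day 8 in place of day 2; the 2 lower became 1 with that minimum and 1 with the cut-offs exchanged. At day 14 the 0 higher became 1 under each of the 3 scalings, and the 3 lower became 8 with no minimum. At day 38 the 5 higher became 0 with 10 RPKM, and the 0 lower became 1 with no minimum. For day 14 over day 2 in Esg>yki[S3A] thoraces, the 21 lower became 7 with 10 RPKM and 3 with day 8 in place of day 2, where the 1 higher became 0. For day 38 over day 14, the 7 higher became 1 with 10 RPKM and 2 with day 32 in place of day 38, and the 0 lower became 1 under each scaling and with the cut-offs exchanged. In control thoraces, the 2 higher at day 14 over day 2 became 1 with 1 RPKM added, 4 with no minimum and 1 with 10 RPKM, and the 0 lower became 1 with edgeR's factors, 1 with DESeq2's, 3 with no minimum and 1 with the cut-offs exchanged. For control day 38 over day 14, the 0 higher became 4 with no minimum and 2 with the cut-offs exchanged, and the 2 lower became 0 with 1 RPKM added, 4 with no minimum and 0 with 10 RPKM.

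The percent of reads on the 46 genes is given for Esg>yki[S3A] days 2, 8, 14, 20, 26, 32 and 38, then control days 2, 14 and 38. With edgeR's TMM factors it was 0.0828, 0.0599, 0.0382, 0.0362, 0.0574, 0.0459 and 0.0435, then 0.0428, 0.0322 and 0.0499. With DESeq2's median of ratios it was 0.0827, 0.0593, 0.0374, 0.0357, 0.0575, 0.0452 and 0.0448, then 0.0429, 0.0324 and 0.0512. Of reads on nuclear protein-coding genes it was 0.103, 0.0998, 0.0628, 0.0604, 0.0890, 0.0694 and 0.0689, then 0.0490, 0.0493 and 0.0781. Without Mal-A5, the gene with the most reads, it was 0.0471, 0.0516, 0.0279, 0.0326, 0.0441, 0.0391 and 0.0397, then 0.0196, 0.0254 and 0.0472.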
